A study of Mus musculus with 16 samples.

Results

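Iodomethylcholine (IMC), a small molecule that inhibits the choline TMA lyase of gut bacteria, was given to mice on a control liquid diet and to mice on an ethanol liquid diet, and the genes described here are those of the liver whose response to IMC was not the same in the 2 diets. For each gene the measure is a difference of differences on the log2 scale: the change from control to IMC in ethanol-fed mice minus the change from control to IMC in pair-fed mice. A value above 0 means that IMC moved the gene further up, or less far down, in ethanol-fed than in pair-fed mice, and a value below 0 means the reverse. The deposited table held 24082 genes by Ensembl ID, and the 12535 of them that reached 10 normalized counts in 4 or more of the 16 libraries were all tested; of these, 138 passed an adjusted p-value of 0.05 for the difference, 40 above 0 and 98 below 0. The libraries came from whole liver of 16 female C57BL6/J mice, 1 mouse per library. By the paper, the mice were 9 to 11 weeks old when they were fed the diets. All 16 mice were fed a Lieber-DeCarli liquid diet. The 4 groups held 4 mice each and are called Pair control (control diet without IMC), Pair IMC (control diet with IMC), EtOH control (ethanol diet without IMC) and EtOH IMC (ethanol diet with IMC). IMC was mixed into the diet at 0.06% wt/wt, so the amount each mouse received followed its intake. The ethanol in the diet was raised in steps from 1% to 6% vol/vol over 25 days. By the paper, food consumption and weight dropped unexpectedly under the combination of drug and ethanol diet, the treatment of EtOH IMC. Whether consumption or weight had a part in the differences between diets was not tested. No group carried a transgene or deleted gene.

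As background, gut bacteria cut dietary choline with the enzyme pair CutC and CutD and release trimethylamine, which the liver oxidises to trimethylamine N-oxide, and IMC is a choline analogue that blocks the first of these steps. Ethanol is oxidised in hepatocytes to acetaldehyde and acetate, which changes their redox state, fat synthesis and detoxifying enzymes, and portal blood carries bacterial products to the immune cells of the liver. A drug that acts on gut bacteria and a diet that acts on the hepatocyte can therefore meet in the same tissue, and a contrast of this kind describes the genes on which the effect of the drug depended on the diet.

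The values are normalized counts: the reads of each gene, which the authors rescaled by 1 factor per library, so that 1 read was worth between 0.906 and 1.18. The reads assigned to genes numbered 9632659 in the shallowest library and 12601199 in the deepest, and 14759 to 15481 genes had at least 1 read. Libraries 1 to 8 were the Pair IMC and EtOH control mice and libraries 9 to 16 were the Pair control and EtOH IMC mice. The difference between the diets is therefore also the difference between late and early library numbers, and the 2 cannot be told apart in these data. Early libraries held a median of 11654229 reads and late libraries 11363339, with 15145 and 15254 genes detected. The share of reads on Alb, the albumin gene, ran from 7.53% to 12% in early and from 6.74% to 13% in late libraries. Liver was sequenced as a whole, and fewer cells of a type cannot be told apart from less RNA per cell.

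Of the 138 genes that passed, 98 lay below 0, and 64 of these had an IMC change of at least 0.5 on the log2 scale in ethanol-fed mice alone. The 138 genes were 1.10% of the genes tested in the limma test with Benjamini-Hochberg adjustment, the 40 above 0 were 0.319% and the 98 below 0 were 0.782%. An unadjusted p-value under 0.05 was found for 1921 genes. The same fit called 2717 genes (21.7%) for IMC against control in ethanol-fed mice and 1178 genes (9.40%) in pair-fed mice. Over all genes tested the median difference was 0.0014 and 50.2% of genes lay above 0. Among the genes called, the median difference was 0.92 above 0 and -1.07 below 0, a description that the call itself fixes in sign. For the 98 genes below 0 the median change with IMC was -0.89 in ethanol-fed and 0.12 in pair-fed mice. For the 40 genes above 0 it was 0.36 in ethanol-fed and -0.54 in pair-fed mice.

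**Figure D1:**
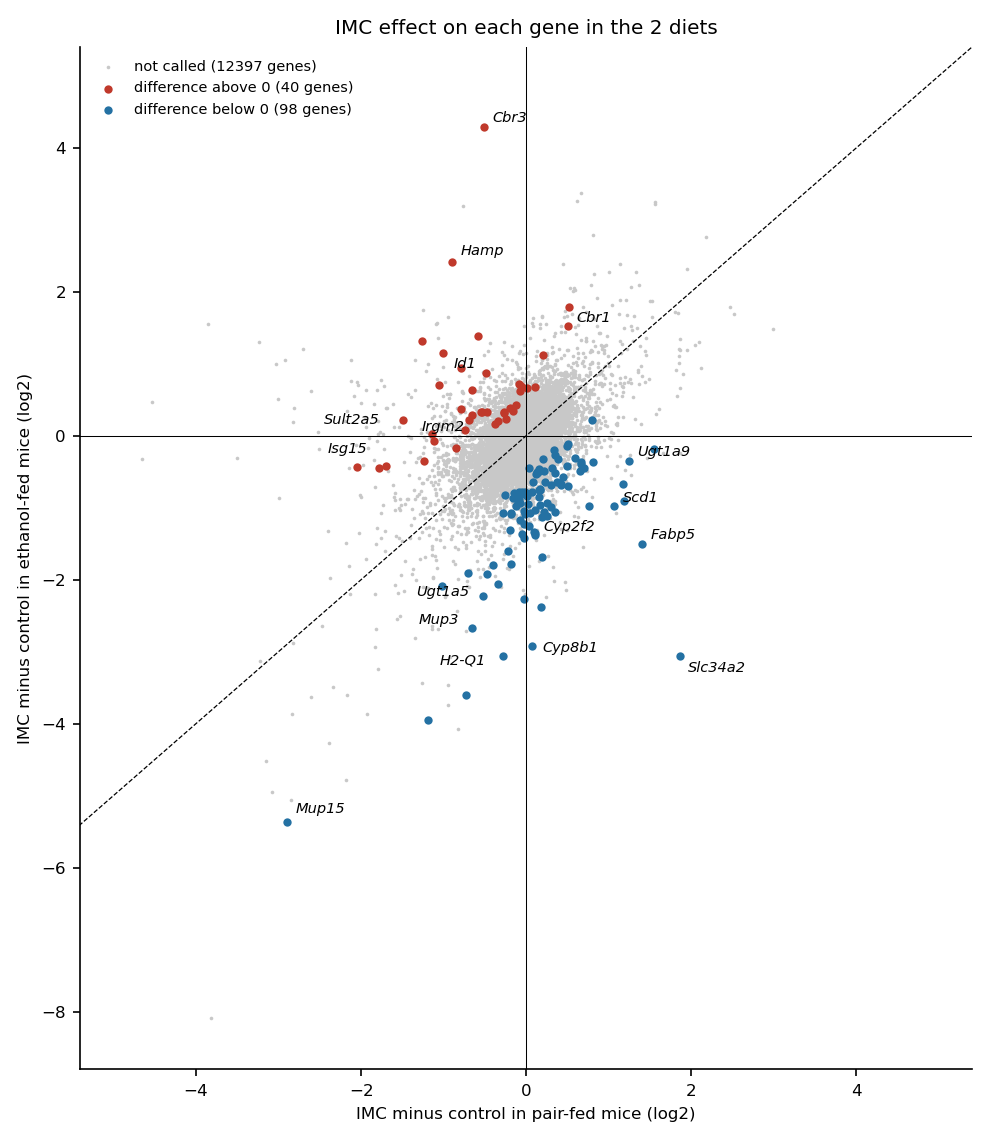
Each of the 12535 genes tested is a point, with the change from control to IMC in pair-fed mice on the horizontal axis and in ethanol-fed mice on the vertical axis (both log2), and points on the dashed line responded alike in both diets. The 40 called genes with a difference above 0 are red and the 98 below 0 are blue, and most of the blue points sit near 0 on the horizontal axis and below 0 on the vertical axis.

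The called genes fell into groups by which diet carried the change, taking a change of 0.5 on the log2 scale as the limit. In 71 genes the change reached this size in ethanol-fed mice alone, and 64 of these lay below 0; over all genes tested the share with this pattern was 11.97%. In 24 genes it did so in pair-fed mice alone, 14 above and 10 below 0, against 6.215% of all genes tested. In 15 genes both diets reached it with opposite signs, where 92 of all genes tested (0.734%) have that pattern. In 9 genes both reached it with the same sign (5.76% of all), and in 19 neither did (75.32% of all). The call itself favours genes with large changes, so nothing is read from these shares. Across the 4 groups, EtOH control had the highest mean for 73 of the 98 genes below 0 and EtOH IMC the lowest for 66. The deposited scaling lifts the values of ethanol-fed over pair-fed mice; after rescaling over all 16 libraries these counts were 57 and 81. For the 40 genes above 0, EtOH IMC had the highest mean for 22 and Pair IMC the lowest for 23. These became 16 and 17 after rescaling, when Pair control was most often highest (24) and EtOH control most often lowest (21). Over all genes tested, the deposited values put EtOH control highest for 38.6% and EtOH IMC lowest for 14.3%. They put EtOH IMC highest for 40.28% and Pair IMC lowest for 37.82%. After rescaling these shares were 26.75%, 26.63%, 26.25% and 24.98%, in the same order. The sign of the difference itself makes some groups more likely to be highest or lowest, so nothing is read from these counts.

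**Figure D2:**
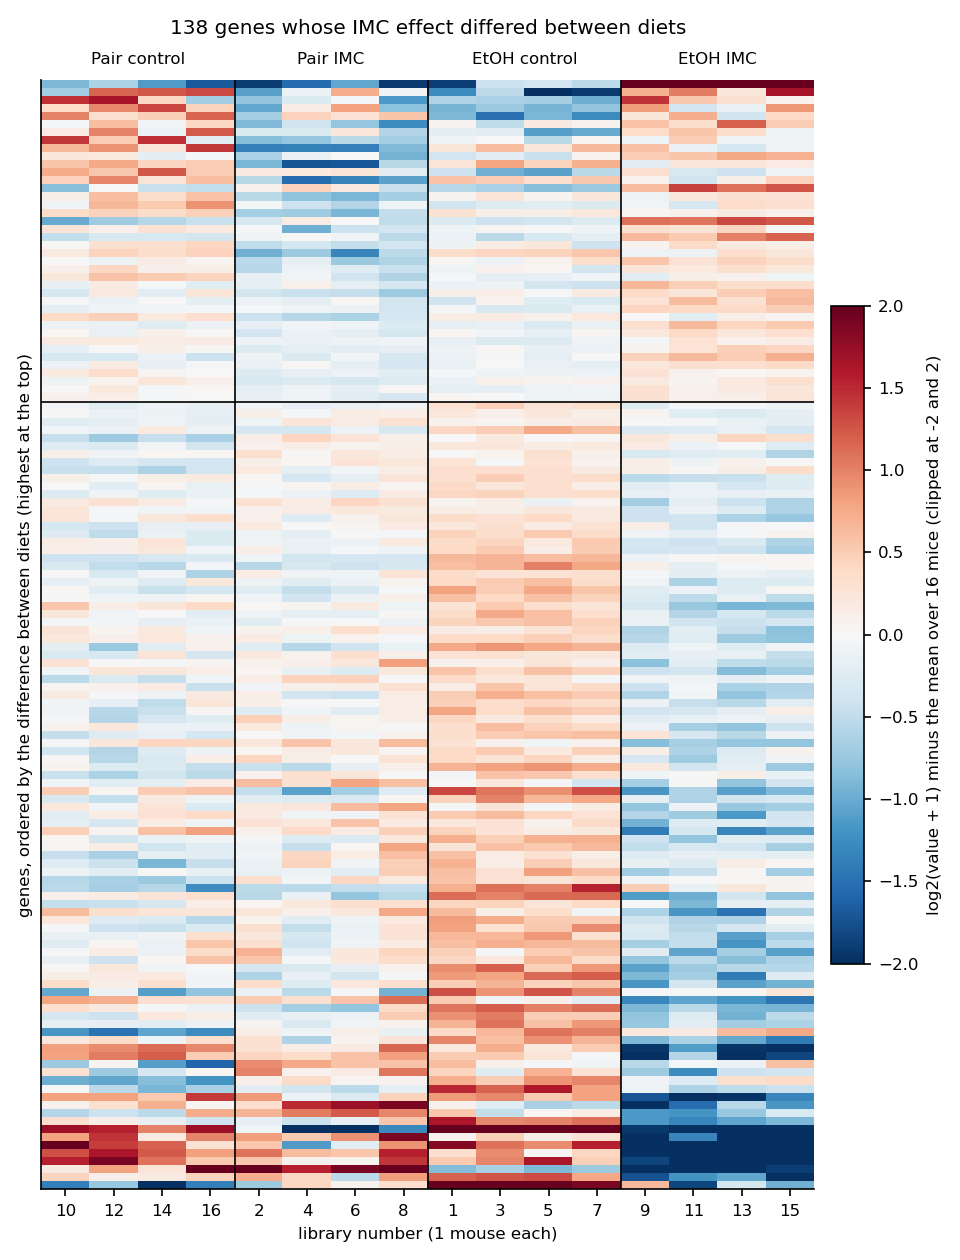
Rows are the 138 called genes ordered by their difference, columns are the 16 mice by group with their library numbers, and colour is log2(value + 1) minus the mean of the gene over the 16 mice (red higher, blue lower, clipped at -2 and 2). Above the horizontal line, at the 40 genes with a difference above 0, Pair IMC and EtOH control are mostly blue, and below it EtOH control is mostly red and EtOH IMC mostly blue.

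In 6 of the called genes linked to interferon and antigen presentation IMC lowered expression in pair-fed mice. Their estimates in ethanol-fed mice did not pass the threshold. The class I gene H2-Q1, also called and described below, went the other way, with a difference of -2.77 and a fall with IMC in ethanol-fed mice. Irgm2 and Igtp, which encode immunity-related GTPases induced by interferon, fell to 0.463 and 0.451 times their control level under IMC on the pair diet, and did not pass on the ethanol diet (0.946 and 1.02 times). Isg15, a ubiquitin-like protein attached to other proteins after interferon signalling, Tap1, a subunit of the transporter that loads peptides for class I MHC, and H2-Q4, a non-classical class I gene, fell in pair-fed mice and did not pass in ethanol-fed mice. Irf7, the transcription factor that amplifies type I interferon, fell in pair-fed mice. The promoters of Isg15 and Igtp are shown because both genes moved together and both hold an element known from interferon-induced genes. Each is the 150 bases before the gene start, 5′ to 3′ on the strand of the gene, from RefSeq promoters on GRCm38.p6, with matches to the core of the interferon-stimulated response element (GAAA, any 2 bases, GAAA) in capitals:
Isg15 (chr4:156200819-156200968, minus strand): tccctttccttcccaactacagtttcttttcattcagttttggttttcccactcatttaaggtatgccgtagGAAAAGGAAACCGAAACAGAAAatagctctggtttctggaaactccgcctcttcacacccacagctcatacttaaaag
Igtp (chr11:58199406-58199555, plus strand): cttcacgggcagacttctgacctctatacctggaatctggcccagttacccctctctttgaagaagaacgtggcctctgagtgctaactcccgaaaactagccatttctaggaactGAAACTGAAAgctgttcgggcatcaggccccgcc
The capitals in Isg15 cover 3 overlapping matches. The element was searched on both strands of the window from 250 bases before to 50 after the start, was found in 3.12% of 12904 promoters of tested genes, and was found in the promoters of 2 of the 4 called members of the interferon list. The search for this element was added after the values were seen, and a match is a description of the letters and not of binding.

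Irgm2 (chromosome 11, 58199618 to 58222782 on GRCm38) had 928, 991, 929.6 and 998 normalized counts in the 4 Pair control mice and 447, 437, 379.7 and 516 in the 4 Pair IMC mice. In EtOH control it had 885, 778, 777 and 831 and in EtOH IMC 739, 767, 815 and 773. All Pair IMC mice lay below every mouse of the other 3 groups, and the 2 ethanol groups overlapped. The IMC change was -1.12 in pair-fed (standard error 0.08, adjusted p = 1.61e-06, limma) and -0.08 in ethanol-fed mice (adjusted p = 0.538), and the difference was 1.04 (95% CI 0.79 to 1.29, adjusted p = 0.000446). Igtp fell by the same measure from 612 ± 91.7 to 276 ± 31.5 (mean ± SD, n = 4) in pair-fed mice and stood at 507 ± 36.9 and 519 ± 64.2 in EtOH control and EtOH IMC. Its difference was 1.17 (standard error 0.17, adjusted p = 0.00221, limma). Exons of these neighbours share 162 bases, 4.39% of the exon bases of Irgm2 and 8.01% of those of Igtp, so a small share of their reads cannot be assigned to either with certainty.

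Isg15 had 83.5, 119.9, 72.7 and 92.2 normalized counts in Pair control, 41, 20.1, 23.4 and 28.3 in Pair IMC, 89.9, 85.7, 76.1 and 88.2 in EtOH control and 63.6, 45.4, 65.8 and 83.8 in EtOH IMC. Every Pair IMC mouse was below every other mouse, while the ethanol groups overlapped at their edge. The change was -1.70 in pair-fed (adjusted p = 0.000199, limma) and -0.42 in ethanol-fed mice (adjusted p = 0.173), with a difference of 1.28 (95% CI 0.64 to 1.92, adjusted p = 0.0494). H2-Q4 fell from 772 ± 62.6 to 428 ± 39 in pair-fed mice and stood at 672 ± 25.2 and 599.6 ± 60.1 on ethanol, a difference of 0.68 (adjusted p = 0.0148, limma). Tap1 fell from 282 ± 25 to 121 ± 27.9 in pair-fed mice, its means on ethanol were 299 ± 15.6 without and 236 ± 37.6 with IMC, and the difference was 0.89 (adjusted p = 0.0462, limma). All 4 EtOH IMC mice lay below the 4 EtOH control mice for Tap1, although its change there, -0.35, did not pass (adjusted p = 0.0898, limma). Irf7 changed by -0.79 in pair-fed mice (adjusted p = 0.015, limma), while its estimate in ethanol-fed mice was above 0 at 0.37 (adjusted p = 0.162), and its 2 pair-fed groups overlapped because of library 10 of Pair control, at 322. Its difference was 1.16 (adjusted p = 0.0438, limma).

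Over the list of interferon response and antigen presentation, 4 of 39 members were called (Igtp, Isg15, Irf7 and Tap1), all above 0, where 0.319% of all genes tested were called above 0. The median difference of the 39 was 0.31 and 30 of them lay above 0, from -0.61 for Oas2 to 1.28 for Isg15. Their median IMC change was below 0 in both diets, -0.45 in ethanol-fed and -0.81 in pair-fed mice. Irgm2 and H2-Q4 are not in that list and are named by their p-values. Irgm2, Igtp and H2-Q4 were called in all 16 fits that left out 1 mouse. Tap1 was called in 5 of these fits with an adjusted p of up to 0.0937 without library 15, Irf7 in 2 with up to 0.0908 without library 15, and Isg15 in 2 with up to 0.103 without library 15. Irf7 and Tap1 also share 45 and 212 exon bases with genes on the opposite strand, Phrf1 and Psmb9. Immune cell markers were few in whole liver: the summed normalized counts of 8 macrophage markers ran from 2294 to 6489 in Pair control, 2576 to 3724 in Pair IMC, 4199 to 5664 in EtOH control and 3162 to 4969 in EtOH IMC. Their part in the interferon genes was not tested.

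Phlda1, an early-response gene with a pleckstrin homology-like domain, followed the same course. Its normalized counts were 388, 457, 292 and 653 in Pair control and 94.4, 95.8, 94.7 and 132 in Pair IMC. On ethanol they were 289, 379, 287 and 385 without and 367, 223, 191 and 233 with IMC. The pair-fed groups did not overlap and the ethanol-fed groups did. The change was -2.05 in pair-fed (adjusted p = 5.78e-05, limma) and -0.43 in ethanol-fed mice (adjusted p = 0.169), and the difference 1.61 (adjusted p = 0.0175). Sult2a5, one of the cytosolic sulfotransferases that act on steroids and bile acids, fell from 500.3 ± 243 in Pair control to 159 ± 15.1 in Pair IMC and stood at 237 ± 40.1 and 277 ± 62.6 on ethanol. Its difference was 1.71 (adjusted p = 0.0423, limma), it was the only called member of 15 tested sulfotransferases, whose median difference was 0.11, and it kept its call in 1 of the 16 fits without 1 mouse, with an adjusted p of up to 0.0868 without library 5. Estimates of the 15 ran from -2.59 for Sult2a8 (adjusted p = 0.102, limma) to 2.13 for Sult1e1 (adjusted p = 0.513), neither past the threshold. The Sult2a genes resemble each other closely, and reads could be shared among them.

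Other genes above 0, among them Hamp, Id1 and Socs2, rose with IMC in ethanol-fed mice and had estimates below 0 in pair-fed mice that did not pass. Hamp encodes hepcidin, the liver hormone that closes the iron exporter ferroportin, and Id1 is a regulator of transcription that, like Hamp, answers to bone morphogenetic protein (BMP) signals. In both, EtOH control had the lowest mean of the 4 groups. The promoter of Hamp is shown because the gene is a textbook BMP target. The letters are the 150 bases before its start, 5′ to 3′, from RefSeq on GRCm38.p6, with a match to GGCGCC, a core of BMP-responsive elements, in capitals:
Hamp (chr7:30944030-30944179, minus strand): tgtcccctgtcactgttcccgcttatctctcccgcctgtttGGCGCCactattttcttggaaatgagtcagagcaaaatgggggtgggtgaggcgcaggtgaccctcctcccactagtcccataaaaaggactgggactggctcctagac
GGCGCC reads the same on both strands and was present in 20.1% of the promoters of tested genes. The search for GGCGCC too was added after the values were seen. The stretch also holds a match to TTCNNNGAA, a STAT element, which is not in capitals here. TTCNNNGAA was present in 7.01% of the promoters of tested genes.

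Hamp had 2599, 9361, 9951 and 10453 normalized counts in Pair control and 1968, 3877, 6979.6 and 3978 in Pair IMC. It had 1734, 2931, 809 and 1115 in EtOH control and 6871, 8514, 4899 and 13103 in EtOH IMC. Every EtOH IMC mouse lay above every EtOH control mouse, and the pair-fed groups overlapped through library 10, the lowest Pair control mouse. The IMC change was 2.42 in ethanol-fed (standard error 0.46, adjusted p = 0.00167, limma) and -0.89 in pair-fed mice (adjusted p = 0.238), and the difference was 3.31 (95% CI 1.93 to 4.69, adjusted p = 0.0228). Hamp kept its call in 12 of the 16 fits without 1 mouse, with an adjusted p of up to 0.0575 without library 5. The near-identical Hamp2 gave a difference of -0.07, and reads could be shared between the 2 copies.

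Id1 had 95, 145, 186 and 99.8 normalized counts in Pair control, 35.3, 81.2, 128 and 41.2 in Pair IMC, 38.3, 43.4, 38.1 and 41.9 in EtOH control and 132, 56.3, 66.9 and 135 in EtOH IMC. The 4 EtOH control mice were tightly grouped below every EtOH IMC mouse, and the pair-fed groups overlapped through library 6. Its difference was 2.15 (95% CI 1.10 to 3.21, adjusted p = 0.0475, limma), from 1.15 in ethanol-fed and -1.0 in pair-fed mice. It was called in 4 of the fits without 1 mouse and in 6 of 13 other alternatives. Hamp was also the only called gene of 34 tested in the STAT3 and acute phase list, whose median difference was 0.06. Of the 23 tested genes of the iron and heme list only Hamp and Id1 were called, and the median difference was 0.04. Among all genes tested 0.319% were called above 0. Other members gave 0.53 for Bmp6, the BMP that acts on Hamp, 0.35 for Smad7, -0.74 for the transferrin receptor Tfrc and 0.41 for the iron exporter Slc40a1, none past the threshold. The summed counts of 6 erythroid genes, mostly globins, ran from 54.4 to 143 in EtOH IMC and from 140 to 395 in EtOH control, against 173 to 287 in Pair control and 203 to 368 in Pair IMC. The part of blood cells in these values was not tested.

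Socs2, a feedback inhibitor of growth hormone signalling that is itself induced through STAT5, was high in pair-fed mice and low in EtOH control. It had 389, 243, 272 and 436 normalized counts in Pair control and 122, 268, 237 and 287 in Pair IMC, then 104, 68.6, 103 and 80.7 in EtOH control and 231, 323, 148 and 258 in EtOH IMC. Every EtOH IMC mouse lay above every EtOH control mouse, a rise of 1.38 on the log2 scale (adjusted p = 0.00179, limma), where the pair-fed estimate was -0.58 (adjusted p = 0.184). The difference was 1.96 (95% CI 1.17 to 2.76, adjusted p = 0.0188) and was called in all 16 fits without 1 mouse. It was the only called gene of 25 tested members of the growth hormone and STAT5 list, with a median of -0.14; Cish, another STAT5 target of the same family, gave 1.19 and Igf1 0.33, neither past the threshold. Hbegf, a ligand of the epidermal growth factor receptor, was low in all groups at 7.06 to 43.5 normalized counts. It fell with IMC in pair-fed mice with no overlap (-1.06, adjusted p = 0.0191, limma). Every EtOH IMC mouse lay above every EtOH control mouse for Hbegf, although that change, 0.70, did not pass (adjusted p = 0.0647, limma). The difference of Hbegf was 1.76 (adjusted p = 0.0309, limma) and held in 5 of the 16 fits without 1 mouse.

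**Figure D3:**
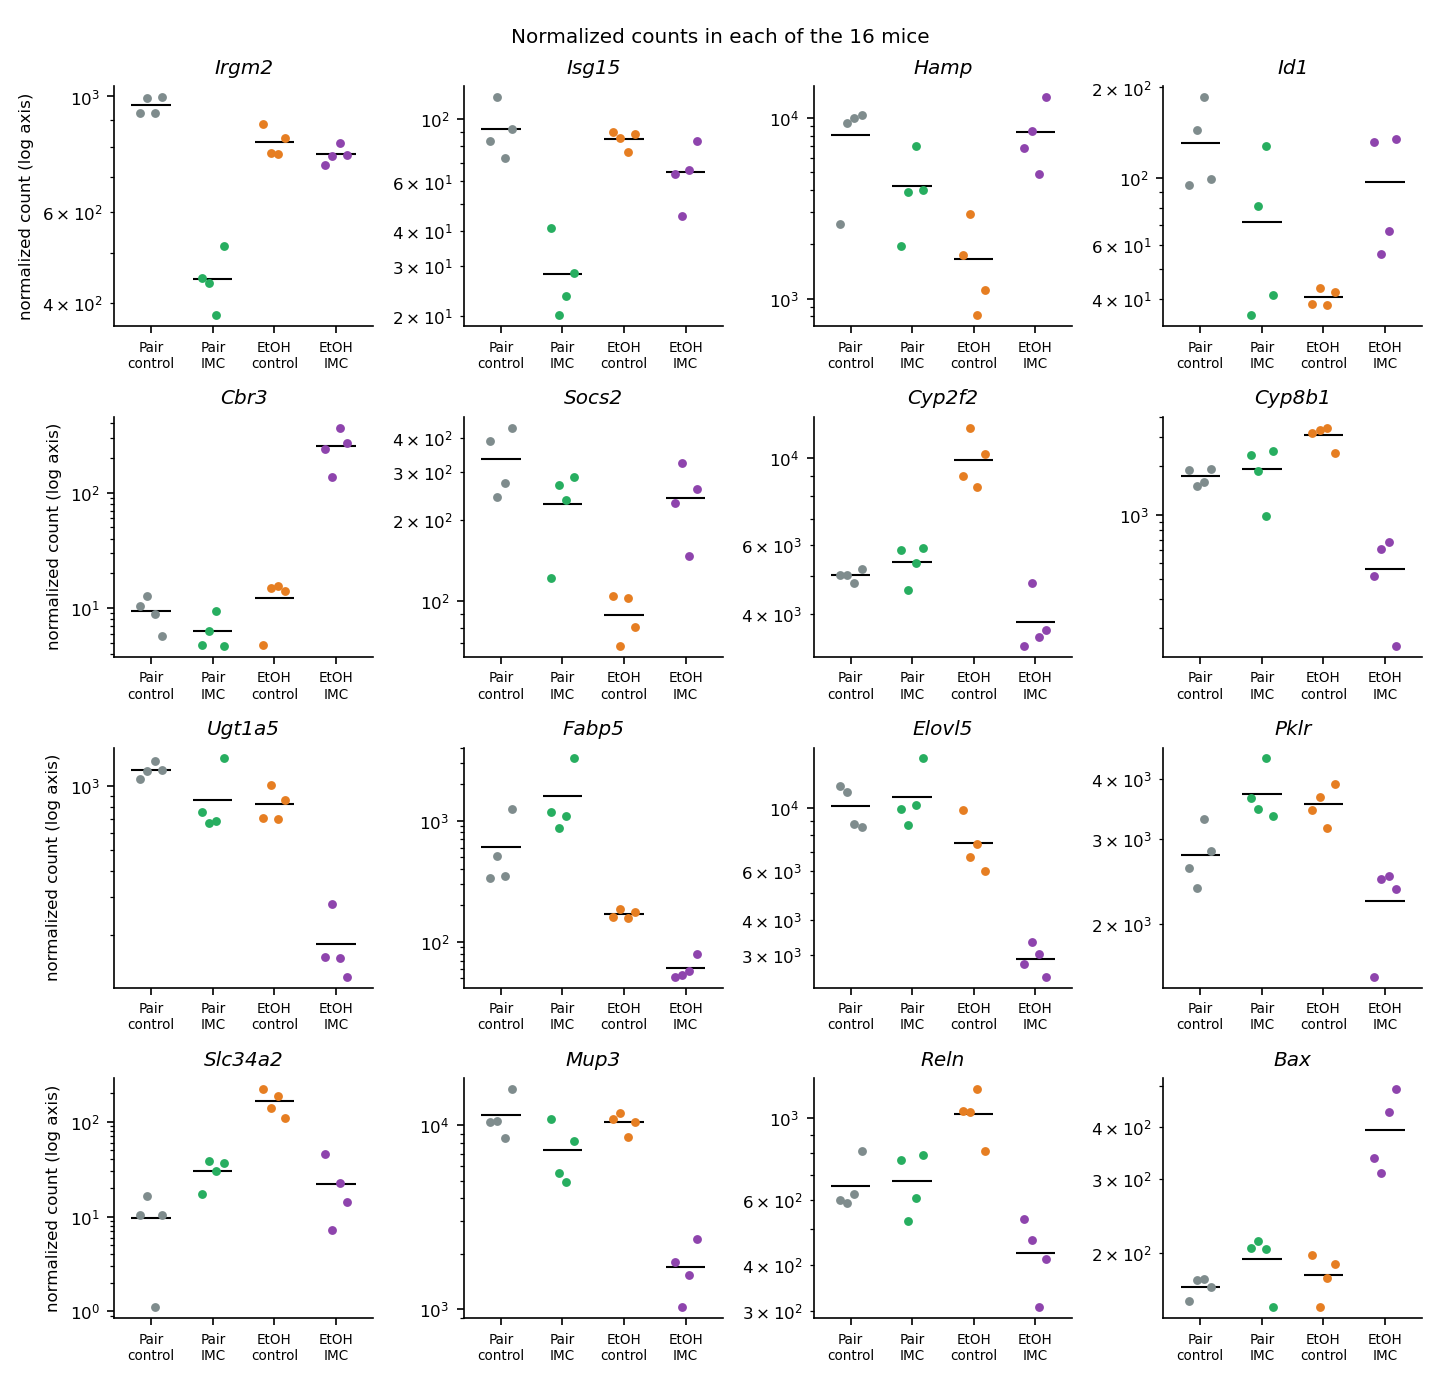
Normalized counts on a log axis for 16 of the named genes, with 1 point per mouse and a line at the mean of each group of 4. Irgm2 and Isg15 are lowest in Pair IMC, Cbr3 and Bax are highest in EtOH IMC, and Cyp8b1, Ugt1a5, Mup3 and Reln are lowest in EtOH IMC.

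The gene with the smallest p-value of all was Cbr3, a carbonyl reductase that uses NADPH to reduce ketones and aldehydes. It was near the limit of detection in 3 groups and rose in EtOH IMC alone. Its normalized counts were 10.4, 12.8, 8.81 and 5.70 in Pair control, 4.77, 6.39, 9.37 and 4.71 in Pair IMC and 4.78, 14.9, 15.4 and 14 in EtOH control. The EtOH IMC mice had 241, 137, 366 and 272, and each of them lay far above all 12 others. The IMC change was 4.29 in ethanol-fed (standard error 0.36, adjusted p = 1.74e-06, limma) and -0.51 in pair-fed mice (adjusted p = 0.408), and the difference was 4.80 (95% CI 3.73 to 5.88, adjusted p = 0.000352). Its neighbour on chromosome 16, Cbr1 (93605853 to 93610505), the main hepatic carbonyl reductase, rose in both diets but further on ethanol. Cbr1 went from 896 ± 145 to 1282 ± 260.2 in pair-fed and from 1133 ± 50.6 to 3256 ± 271 in ethanol-fed mice (mean ± SD, n = 4). The changes were 0.51 (adjusted p = 0.022, limma) and 1.52 (adjusted p = 1.74e-06), and the difference 1.01 (adjusted p = 0.0139). Both were called in all 16 fits without 1 mouse.

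Of 29 tested NRF2 antioxidant and NADPH genes only Cbr3 and Cbr1 were called, where 0.319% of all genes tested were called above 0. The median difference of the 29 was 0.18 with 19 above 0. The glutathione S-transferases, enzymes of the same defence, had 0 of 21 called and a median of 0.28. Bax, which encodes a pore-forming protein of apoptosis and is a p53 target, rose in EtOH IMC. Bax had 153, 172, 173 and 166 normalized counts in Pair control, 206, 214, 204 and 148 in Pair IMC, 198, 149, 174 and 188 in EtOH control and 337, 309, 434 and 492 in EtOH IMC. Every EtOH IMC mouse was above all 12 others, with a difference of 0.93 (adjusted p = 0.0404, limma), an ethanol-fed change of 1.13 and a pair-fed estimate of 0.20 (adjusted p = 0.417). It was the 1 called member of 22 tested p53 targets, whose median was 0.28, and it held in 4 of the 16 fits without 1 mouse.

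Smaller rises with IMC in ethanol-fed mice had small errors. Hint1, a nucleotide hydrolase, had 1382, 1416, 1293 and 1424 in EtOH control and 1955, 2466, 2112 and 2251 in EtOH IMC, where the 8 pair-fed mice ran from 1303 to 1513. Its difference was 0.66 (95% CI 0.42 to 0.89, adjusted p = 0.00913, limma) and it was called in all 16 fits without 1 mouse. Fam50a went from 182 ± 16.7 to 278 ± 10 on ethanol, with no overlap, and the pair-fed means were 195 ± 8.97 and 186 ± 18.5 (difference 0.69, adjusted p = 0.0183, limma). Rabac1, a receptor for prenylated Rab proteins, went from 365 ± 42 to 599.8 ± 62.6 against 416 ± 48.8 and 391.9 ± 50.8 (difference 0.81, adjusted p = 0.0228, limma), and was called in 12 of the 16 fits. Kyat3, which transaminates kynurenine, moved in opposite directions. IMC raised it by 0.32 in ethanol-fed (adjusted p = 0.0113, limma) and it fell by 0.27 in pair-fed mice (adjusted p = 0.0473), a difference of 0.60 (adjusted p = 0.0228) that held in 13 of the 16 fits.

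Below 0, the cytochrome P450 genes Cyp2f2 and Cyp2d40 were highest in ethanol-fed control mice and fell under IMC below the means of both pair-fed groups. Cyp2f2, which oxidises naphthalene and other small aromatic compounds, had 8998, 11958, 8446 and 10256 normalized counts in EtOH control and 3315, 4790.5, 3492 and 3633 in EtOH IMC. In Pair control it had 5021, 5041, 4799 and 5199.7 and in Pair IMC 5842, 4597, 5383 and 5907. The ethanol-fed groups were far apart and the pair-fed groups overlapped. The change was -1.38 in ethanol-fed (standard error 0.12, adjusted p = 2.51e-06, limma) and 0.11 in pair-fed mice (adjusted p = 0.621), and the difference was -1.49 (95% CI -1.86 to -1.12, adjusted p = 0.000446). Cyp2d40 fell from 1242 ± 248 to 406 ± 64.1 on ethanol and stood at 689.9 ± 64.6 and 593 ± 82 in pair-fed mice, with a difference of -1.38 (adjusted p = 0.00251, limma).

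Cyp2c39 and Cyp2c40, of a subfamily that oxidises arachidonic acid and many drugs, fell with IMC in ethanol-fed mice with no overlap. Cyp2c39 went from 162 ± 27.7 to 43 ± 28.6 and Cyp2c40 from 3036 ± 281 to 1275 ± 465, while their pair-fed changes were -0.35 and -0.20 and did not pass. Their differences were -1.72 (adjusted p = 0.0459, limma) and -1.11 (adjusted p = 0.0494). Each was called in 2 of the 16 fits without 1 mouse, with adjusted p of up to 0.0936 without library 3 and 0.105 without library 1. Among 22 tested Cyp2b, Cyp2c and Cyp2d genes, Cyp2d40, Cyp2c39 and Cyp2c40 were called, where 0.782% of all genes tested were called below 0. The median difference of the 22 was -0.0014 and 11 lay above 0. Cyp2f2 was the only called gene of 13 tested Cyp1, Cyp2a, Cyp2e, Cyp2f, Cyp2g and Cyp2j genes. Of those 13, 7 lay above 0 and the median was 0.014. None of 6 Cyp3a and none of 4 Cyp4a genes passed, with medians of 0.0065 and -0.61. The Cyp3a estimates were far apart, from -4.27 for Cyp3a16 (adjusted p = 0.0944, limma) to 0.77 for Cyp3a59, with 3 above and 3 below 0. These P450 genes stand in clusters of close copies, and reads could be split among them.

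Cyp8b1, the sterol 12-alpha-hydroxylase that directs bile acid synthesis to cholic acid, had the largest fall of any called P450. Its normalized counts were 1896, 1497, 1585 and 1909.7 in Pair control and 2317, 1859, 976 and 2485 in Pair IMC. They were 3173, 3352, 3442 and 2388 in EtOH control and 415, 609, 677 and 154 in EtOH IMC. The EtOH IMC mice were below all others, and the pair-fed groups overlapped. The difference was -2.99 (95% CI -4.03 to -1.95, adjusted p = 0.00781, limma), from -2.92 in ethanol-fed and 0.07 in pair-fed mice. It was the only called gene among 16 tested genes of bile acid synthesis, where 14 lay below 0 and the median was -0.15. Cyp7a1, the rate-limiting enzyme, gave -2.25 and did not pass (adjusted p = 0.11, limma).

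The list of UDP-glucuronosyltransferases, which attach glucuronic acid to bilirubin, hormones and drugs, had 17 tested members, among them the dehydrogenase Ugdh (difference 0.53). Of these 4 were called (Ugt1a5, Ugt1a9, Ugt3a1 and Ugt3a2), all below 0, where 0.782% of all genes tested were called below 0, and the median difference was -0.26 with 11 below 0. The 4 did not share a course. Ugt1a5 had 706, 1010.4, 696 and 860.5 normalized counts in EtOH control and 158, 279, 156 and 127 in EtOH IMC, with 1075, 1171, 1314 and 1189 in Pair control and 751, 669, 684 and 1347 in Pair IMC. It fell by 2.23 on the log2 scale in ethanol-fed mice (adjusted p = 6.49e-06, limma), with no overlap, and the pair-fed estimate was -0.52 (adjusted p = 0.149), for a difference of -1.70 (adjusted p = 0.0141). Ugt1a9 instead rose with IMC in pair-fed mice with no overlap, from 385, 309, 415 and 360.3 to 944, 822, 932 and 773, and had 1127, 1360.1, 1821 and 1738 and 996, 962, 1330.5 and 1457 in EtOH control and EtOH IMC, which overlapped. Its changes were 1.24 (adjusted p = 0.000175, limma) and -0.35 (adjusted p = 0.118), a difference of -1.59 (95% CI -2.05 to -1.13, adjusted p = 0.00171). The Ugt1a genes use the same last exons, 1311 bases that make up 59.9% of the exon bases of Ugt1a9 and 59.5% of those of Ugt1a5, so how the reads there were divided among them is uncertain.

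Ugt3a1 and Ugt3a2, which use sugars other than glucuronic acid, lie side by side on chromosome 15 and fell with IMC in ethanol-fed mice alone. Ugt3a1 went from 834 ± 58 to 317 ± 86.2 in ethanol-fed mice and stood at 654 ± 86.2 and 647 ± 116 in pair-fed mice, a difference of -1.40 (adjusted p = 0.00637, limma) that was called in all 16 fits without 1 mouse. The more abundant Ugt3a2 went from 6377 ± 422 to 4685 ± 333, with 4545 ± 235 and 4631 ± 189 in pair-fed mice. Its difference, -0.47 (95% CI -0.70 to -0.24, adjusted p = 0.0465, limma), was the smallest in size of any called gene and held in 3 of the 16 fits.

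Genes of fat synthesis lay mostly below 0. Of 24 tested members of the fatty acid synthesis list 22 lay below 0, with a median of -0.71, and 3 were called, all below 0: Scd1, Elovl5 and Acly. Over all genes tested 0.782% were called below 0 and 50.2% lay above 0. Scd1, the desaturase that makes oleate and palmitoleate, moved in opposite directions in the 2 diets. It had 101679, 120212, 156715 and 99049.6 normalized counts in Pair control and 121955, 269182, 317413 and 352866 in Pair IMC. On ethanol it had 102554, 80887, 61505 and 66239 without and 23909.7, 33629, 65546 and 43089.5 with IMC. Within each diet the groups overlapped, through library 2 in Pair IMC and library 13 in EtOH IMC. The changes were 1.07 (adjusted p = 0.0472, limma) in pair-fed and -0.97 (adjusted p = 0.0406) in ethanol-fed mice, and the difference was -2.04 (95% CI -3.01 to -1.07, adjusted p = 0.0423). It held in 3 of the 16 fits without 1 mouse, with an adjusted p of up to 0.0906 without library 1.

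Elovl5, an elongase of polyunsaturated fatty acids, had 9874, 6688, 7449 and 5967 normalized counts in EtOH control and 2801, 3355, 3026 and 2523 in EtOH IMC, while the 8 pair-fed mice ran from 8569 to 14995. It fell on ethanol with no overlap (-1.34, adjusted p = 7.18e-05, limma), against 0.09 in pair-fed mice (adjusted p = 0.783), and the difference of -1.43 (adjusted p = 0.00963) was called in all 16 fits. Acly, which makes cytosolic acetyl-CoA from citrate, fell from 5742 ± 637 to 2936 ± 293 on ethanol and stood at 3803 ± 630.5 and 4446 ± 1739.5 in pair-fed mice. Its difference of -1.13 (adjusted p = 0.0494, limma) held in 2 of the 16 fits, with up to 0.103 without library 15. Members that did not pass included Fasn, the fatty acid synthase, at -0.76, Thrsp at -1.52 and Pnpla5 at -2.52, while Srebf1, which encodes the transcription factor of the pathway, gave 0.57.

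Pklr, the liver pyruvate kinase, which makes pyruvate for fat synthesis, fell with IMC on ethanol, while its pair-fed estimate was above 0. Its normalized counts were 2615, 2373, 3312 and 2838 in Pair control and 3651, 3465, 4416 and 3359.6 in Pair IMC, then 3448, 3666, 3170.0 and 3909 in EtOH control and 1556, 2485, 2521 and 2371 in EtOH IMC. The IMC mice were above the controls throughout on the pair diet and below them throughout on ethanol. The changes were 0.42 (adjusted p = 0.0681, limma), which did not pass, and -0.69 (adjusted p = 0.00263), and the difference was -1.11 (95% CI -1.53 to -0.69, adjusted p = 0.0138). Exons of Pklr share 711 bases, 22% of its exon bases, with Hcn3 on the opposite strand. Fabp5, a fatty acid binding protein, went the same way more strongly, from 334, 515, 351 and 1243 to 1188, 862, 1099.7 and 3257 in pair-fed and from 159.8, 187, 157 and 177 to 51.7, 53.5, 57.3 and 78.7 in ethanol-fed mice. The ethanol-fed groups did not overlap, and the pair-fed groups did because library 16 of Pair control stood at 1243. Its changes were 1.40 (adjusted p = 0.025, limma) and -1.5 (adjusted p = 0.00839), the difference was -2.90 (95% CI -4.0 to -1.80, adjusted p = 0.0139), and it was called in all 16 fits without 1 mouse.

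Of the enzymes of mitochondria and peroxisomes, Acsf2, Etfdh, Dmgdh, Acss3 and Hao2 were called below 0 and fell with IMC on ethanol. Acsf2, which activates medium-chain fatty acids in mitochondria, had 3054, 3119, 2989.6 and 3097 normalized counts in EtOH control and 1797, 1989, 2042 and 2001 in EtOH IMC, and 1457 to 1830 over the 8 pair-fed mice. The difference was -0.73 (95% CI -0.94 to -0.51, adjusted p = 0.00221, limma). Etfdh, which passes electrons from acyl-CoA and choline-derived dehydrogenases to ubiquinone, fell from 4359.6 ± 343 to 3066 ± 203 on ethanol and stood at 3429 ± 309.8 and 3761 ± 196 in pair-fed mice (difference -0.64, adjusted p = 0.0141, limma). Dmgdh, the dimethylglycine dehydrogenase of choline breakdown, fell from 7730.4 ± 938 to 4623 ± 928, against 6048 ± 1053 and 6656 ± 682 (difference -0.91, adjusted p = 0.0423, limma). It was the 1 called member of 30 tested genes of choline, the methionine cycle and TMA oxidation, whose median was -0.08. Acss3, a mitochondrial acyl-CoA synthetase of short chains, had a difference of -1.02 (adjusted p = 0.0465, limma) with a fall from 739 ± 46 to 367 ± 97.5 on ethanol, and it was the only called gene of 15 tested genes of ethanol and acetaldehyde metabolism (median -0.17). Of its exon bases 33.9% lie opposite exons of Ppfia2, which was not tested.

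Hao2, a peroxisomal hydroxyacid oxidase, fell with IMC in both diets with no overlap, and further on ethanol. The mice had 547, 398, 553 and 577 normalized counts in Pair control, 275, 184, 242 and 326 in Pair IMC, 982, 813, 742 and 949.7 in EtOH control and 173, 256, 182 and 211 in EtOH IMC. The changes were -1.03 (adjusted p = 0.00137, limma) and -2.09 (adjusted p = 1.58e-06), and the difference was -1.06 (95% CI -1.55 to -0.57, adjusted p = 0.039). Etfdh and Hao2 were the 2 called members of 40 tested genes of fatty acid oxidation and ketogenesis, of which 35 lay below 0 with a median of -0.22. Among all genes tested 0.782% were called below 0. Acsf2 and Etfdh were called in all 16 fits without 1 mouse, Hao2 in 4, Dmgdh in 3 and Acss3 in 3, with adjusted p of up to 0.0834, 0.0912 and 0.0919 without libraries 1, 3 and 5. Car5b, a mitochondrial carbonic anhydrase, rose in pair-fed mice from 38 ± 3.65 to 67.7 ± 9.22 (adjusted p = 0.00155, limma) and had 75.3 ± 7.69 and 57.9 ± 2.20 on ethanol. No group of Car5b overlapped with the other of its diet, and the difference was -1.18 (adjusted p = 0.00637, limma).

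Major urinary proteins, pheromone carriers that the liver secretes in large amounts under growth hormone control, had 2 of 11 tested members called, both below 0 with a larger fall on ethanol, against 0.782% of all genes tested called below 0. The median difference of the 11 was -1.14 and 9 lay below 0. Mup3 had 10418, 10519.9, 8572 and 15721 normalized counts in Pair control, 10774, 5532, 4919 and 8248 in Pair IMC, 10789.5, 11638, 8597 and 10475 in EtOH control and 1814, 1022, 1531 and 2409.9 in EtOH IMC. The EtOH IMC mice stood apart below all 12 others, and the pair-fed groups overlapped. Its changes were -2.67 in ethanol-fed (adjusted p = 4.43e-06, limma) and -0.65 in pair-fed mice (adjusted p = 0.113), and the difference was -2.02 (95% CI -2.77 to -1.27, adjusted p = 0.0127). Mup15 fell from 121 ± 25.8 to 18.3 ± 14.3 in pair-fed and from 280.0 ± 116 to 5.94 ± 3.12 in ethanol-fed mice, changes of -2.90 and -5.36, with a difference of -2.46 (adjusted p = 0.0465, limma). It was called in 3 of the 16 fits without 1 mouse, and near 0 the pseudocount of 1 narrows its change. Mup genes are near-identical copies, and their reads could be shared.

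Reln and Pdgfrb, 2 of 8 markers of hepatic stellate cells, fell with IMC in ethanol-fed mice and not in pair-fed mice. Stellate cells store vitamin A and lay down matrix. Reln, which encodes reelin and is made by stellate cells in liver, had 1042, 1034, 1194 and 809.9 normalized counts in EtOH control and 530.4, 466, 307 and 415 in EtOH IMC. It had 598, 589, 620.1 and 815 in Pair control and 768, 526, 606 and 795 in Pair IMC, which overlapped. The difference was -1.29 (95% CI -1.79 to -0.79, adjusted p = 0.0141, limma), from -1.26 in ethanol-fed and 0.03 in pair-fed mice. Pdgfrb, the receptor for platelet-derived growth factor on these cells, had 128, 143, 148 and 153 in EtOH control, 121, 79.9, 68 and 91.9 in EtOH IMC, 72, 83.3, 89.2 and 77.9 in Pair control and 100.1, 94.9, 96.6 and 106 in Pair IMC. It did not overlap within either diet, with opposite signs, and its difference was -0.99 (adjusted p = 0.0269, limma), called in 10 of the 16 fits without 1 mouse. Col14a1, a fibril-associated collagen, fell from 856 ± 30.9 to 336 ± 67.6 on ethanol and stood at 577 ± 151 and 551 ± 114 in pair-fed mice (difference -1.31, adjusted p = 0.0168, limma).

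Reln and Pdgfrb were the 2 called genes of 8 stellate markers, where 0.782% of all genes tested were called below 0. The median difference of the 8 was -0.38 with 5 below 0. Their fellow markers did not follow in step: Dcn gave -0.39, Colec11 -0.58, Lrat 0.09, Col1a1 0.05 and Des 0.86, none past the threshold. Col14a1 was the 1 called gene of 25 tested matrix genes, with a median of -0.19. Summed over the 8 markers, Reln and Pdgfrb included, normalized counts ran from 5104 to 5991 in EtOH control and from 3247 to 4274 in EtOH IMC, against 3162 to 4417 in Pair control and 3131 to 3919 in Pair IMC. Whether the number of stellate cells or their RNA changed was not tested. Markers of hepatocytes, macrophages, sinusoidal endothelium, bile duct, pancreas, intestine and erythroid cells had no called member, and none of the 5 markers of T and NK cells reached the limit for testing. The 5 tested bile duct markers had a median of 0.91, the 2 of pancreas 1.72 and the 4 of erythroid cells -1.52. Of the 8 pancreas markers Cpb1, Pnlip, Cpa1 and Amy2a5 were at 0 in all 16 libraries, and of the 6 intestinal markers Cdx1 and Cdx2 were.

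The largest difference below 0 was in Slc34a2, a sodium-dependent phosphate cotransporter that also moved in opposite directions. Its normalized counts were 10.4, 16.5, 1.10 and 10.5 in Pair control, 17.2, 38.3, 30 and 36.5 in Pair IMC, 220.0, 139, 188 and 109 in EtOH control and 45.2, 7.26, 22.3 and 14.1 in EtOH IMC. IMC mice were above controls throughout on the pair diet and below them throughout on ethanol. The changes were 1.86 (adjusted p = 0.0427, limma) and -3.06 (adjusted p = 0.00112), and the difference was -4.91 (95% CI -6.56 to -3.26, adjusted p = 0.00637), called in all 16 fits without 1 mouse. Its lowest value, 1.10 in library 14 of Pair control, is 1 read. Frmd4a, a scaffold protein, and Rab36, a small GTPase, had the same pattern in their estimates. Frmd4a went from 82.5 ± 17.5 to 116 ± 10.5 and from 129 ± 8.35 to 81 ± 19.8 (difference -1.21, adjusted p = 0.0244, limma). Rab36 went from 84.3 ± 25.4 to 145 ± 51.2 and from 117 ± 30.3 to 58.5 ± 15 (difference -1.74, adjusted p = 0.0404, limma). They were called in 10 and 5 of the 16 fits without 1 mouse.

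Among genes below 0 that changed in pair-fed mice alone, Rrm2 and Nsmf rose with IMC. Rrm2, the small subunit of ribonucleotide reductase, had 65.8, 57.7, 69.4 and 61.8 normalized counts in Pair control, 95.3, 114, 106 and 90.6 in Pair IMC, 86.1, 134, 131 and 113 in EtOH control and 84.9, 90.7, 97.7 and 81.8 in EtOH IMC. It rose in pair-fed mice with no overlap (0.66, adjusted p = 0.00704, limma), and the ethanol-fed groups overlapped (-0.36, adjusted p = 0.0692). The difference was -1.02 (adjusted p = 0.0175), and no other of 35 tested genes of cell cycle and DNA replication was called, with a median of -0.03. Nsmf rose from 945 ± 137 to 1432 ± 241 in pair-fed mice with no overlap (adjusted p = 0.00557, limma) and had 1380.2 ± 156 and 1108 ± 35.5 on ethanol. Every EtOH IMC mouse lay below every EtOH control mouse for Nsmf, although that change, -0.31, did not pass (adjusted p = 0.073, limma). The difference of Nsmf was -0.90 (adjusted p = 0.0152, limma). Rrm2 and Nsmf were called in all 16 fits without 1 mouse.

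The remaining genes named by their p-values fell with IMC in ethanol-fed mice. Fam198a had 339.6, 215, 218 and 237 normalized counts in EtOH control and 48.9, 43.6, 52 and 58.6 in EtOH IMC, and 81.2 to 161 over the pair-fed mice, with a difference of -2.24 (95% CI -2.85 to -1.64, adjusted p = 0.00103, limma). Uck1, which phosphorylates uridine and cytidine, had 700.3, 749, 771 and 708 in EtOH control and 467, 390.2, 379 and 406 in EtOH IMC, and 440.4 to 513 over the pair-fed mice (difference -0.84, adjusted p = 0.00157, limma). Tsc22d1, a transcriptional regulator induced by TGF-beta, had 1256, 999, 1339.8 and 769 and 410.5, 287, 311 and 329 in the same groups (difference -1.88, adjusted p = 0.00171, limma). In these 3 genes EtOH control stood above all other mice. H2-Q1, a class I gene near H2-Q4 in the MHC, did not move as H2-Q4 did: it went from 162 ± 44.7 to 19.6 ± 7.82 on ethanol and had 283 ± 62.9 and 236 ± 79 in pair-fed mice (difference -2.77, adjusted p = 0.00422, limma). H2-Q genes are close copies whose reads could be shared.

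Cmah, the enzyme that makes N-glycolylneuraminic acid, fell from 1844 ± 231 to 540.3 ± 117 on ethanol, against 1222 ± 162 and 1096 ± 281 in pair-fed mice (difference -1.60, adjusted p = 0.0066, limma). Tlr12, a Toll-like receptor for profilin of parasites, fell with IMC in both diets with no overlap, from 106 ± 8.10 to 65.4 ± 13 and from 198 ± 9.33 to 52.9 ± 13. Its changes were -0.71 (adjusted p = 0.0101, limma) and -1.91 (adjusted p = 1.58e-06), and the difference -1.20 (adjusted p = 0.0141). It was the only called gene of 22 tested cytokine, chemokine and receptor genes of the inflammatory list, whose median was 0.12. F5, coagulation factor V, fell from 8499 ± 865 to 6199.9 ± 719 on ethanol (difference -0.61, adjusted p = 0.0494, limma) and was called in 2 of the 16 fits without 1 mouse. It was the 1 called gene of 38 tested complement and coagulation genes, of which 33 lay below 0 with a median of -0.14. Fam198a, Uck1, Tsc22d1, H2-Q1, Cmah and Tlr12 were called in all 16 fits.

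At the threshold, the last called genes were Dpyd, which starts pyrimidine breakdown, at -0.70 and Defb1, a beta-defensin, at -1.06, each with an adjusted p of 0.0494 (limma), a value that F5, Acly, Isg15 and Cyp2c40 shared. Just outside it were Uap1l1 at 1.44 (adjusted p = 0.0507) and Suclg2, a subunit of succinyl-CoA ligase, at -0.50 (adjusted p = 0.0516). Uap1l1 rose with IMC in ethanol-fed mice from 34.9 ± 9.98 to 102 ± 26.5, and its difference is larger in size than that of many genes inside the threshold.

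Several lists without any called gene leaned to one side. Cytosolic ribosomal proteins had 78 of 81 tested members above 0, with a median difference of 0.18 and a range from -0.09 to 0.87, and 0 called in limma. Factors of rRNA processing and ribosome assembly had 70 of 76 above 0, with a median of 0.23. Genes of ATF4 and amino acid stress had 21 of 24 above 0, with a median of 0.47, led by Gdf15 at 1.97, Asns at 1.26 and Atf3 at 1.20, none past the threshold. Chaperones of the endoplasmic reticulum had 17 of 22 above 0 (median 0.16). Genes of a list are measured in the same 16 mice and move together, so these counts are descriptions. Medians within 0.1 of 0 were found for subunits of the respiratory chain (44 of 78 above 0, median 0.05) and of the proteasome (27 of 43, median 0.06), genes of cholesterol synthesis (11 of 25, median -0.07) and clock genes (9 of 18, median -0.03), where 50.2% of all genes tested lay above 0.

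**Figure D4:**
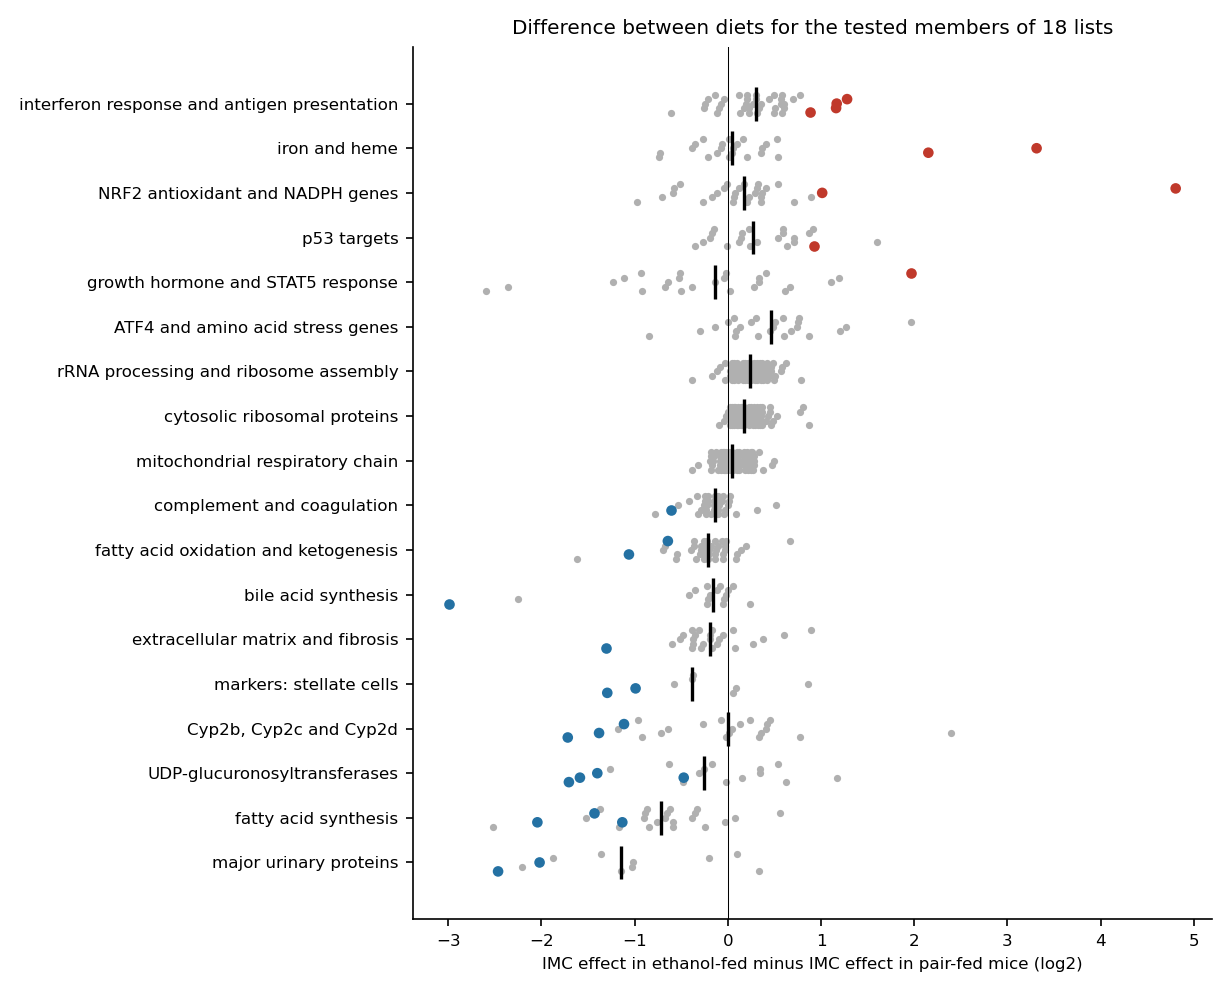
Each point is a tested member of 1 of 18 gene lists, placed by its difference between diets on the log2 scale, with called genes in red (above 0) or blue (below 0), other genes in grey, and a black bar at the median. The interferon, ribosome and ATF4 lists lie mostly right of 0 and the fatty acid synthesis and major urinary protein lists mostly left of it.

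The number of genes moved further when 1 mouse was left out than when the scaling was changed. Leaving out a mouse also makes its group smaller, so these changes are not like for like. Without 1 mouse at a time the count ran from 54 (without library 5 of EtOH control) to 168 (without library 11 of EtOH IMC). It was 85 without library 14, 75 without 13, 73 without 15, 69 without 2, 67 without 1 and also without 3, 63 without 6, 62 without 8, 60 without 7 and 59 without 12. In total 47 of the 138 genes were called in each of the 16 fits. Of these, 43 were also called in each of the 14 other alternatives that tested them, and no called gene changed its sign in any fit. In 71 genes the call was made in no more than 8 of the 16 fits. Rescaling over all 16 libraries gave 139 genes, and edgeR with TMM on the recovered whole reads gave 119, of which 116 were among the 138. DESeq2 on the whole reads gave 340, among them all 138. The shift of the median gene was at most 0.02 on the log2 scale in any setting.

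**Figure D5:**
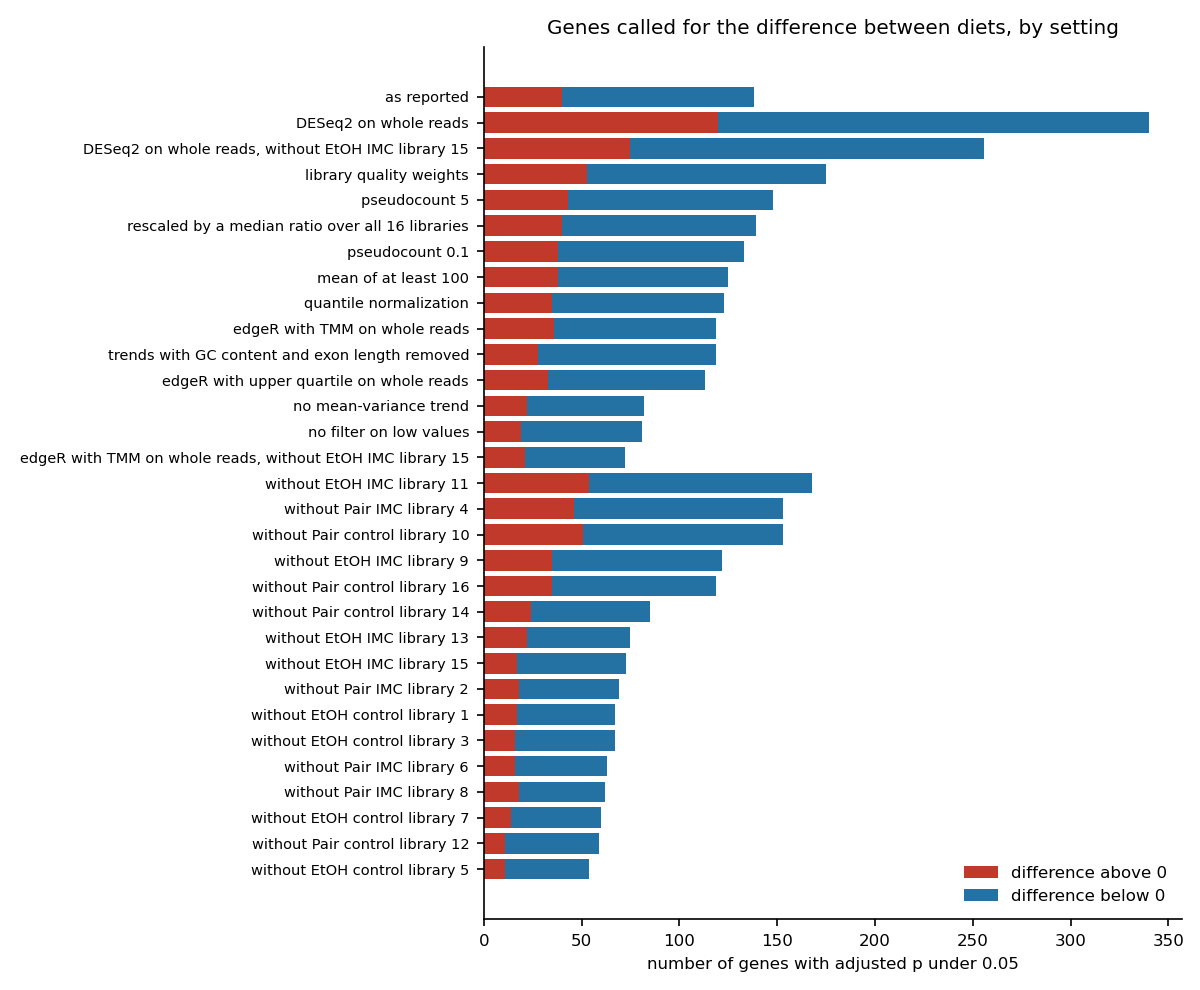
Bars give the number of genes with an adjusted p under 0.05 for the difference between diets, above 0 in red and below 0 in blue, as reported (138), under 14 other settings and without each of the 16 libraries in turn. Genes below 0 outnumber those above 0 in every bar, and 11 of the 16 bars without 1 library are at or under 85 genes.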

How the data were processed

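Liver RNA of 16 mice was measured by RNA sequencing of directional libraries. By the methods, Trim Galore was used for trimming, STAR for alignment to mm10 and edgeR for upper-quantile normalization; the counting tool and its use of strand are not given in the sources used here. The methods describe single-end and the labels paired-end reads. The deposited signal values are normalized counts, whole reads divided by a size factor per library: 100% of values divided by the value of 1 read came within 0.01 of a whole number. In library 15 of EtOH IMC 1 read was worth about 1, so it was also left out of the tests on whole reads. The table held 27212 rows for 24082 Ensembl IDs, with 430 IDs under several symbols and always 1 set of values, and each ID was used once.

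The 12535 genes that reached 10 in 4 or more libraries were fitted with limma 3.58.1 (R 4.3.3) as log2(value + 1), a pseudocount of 1 that understates the change of low genes, with 1 mean for each group, two-sided moderated tests whose prior variance followed expression, Benjamini-Hochberg adjustment over all genes tested and a threshold of 0.05. Of these genes 5 passed the filter through 1 group only, and 0 of the 5 were called. Means and SDs are of normalized counts, standard errors and 95% intervals of log2 differences. Each library is labelled as a separate sample; the cage or litter behind each library is not given in the labels. Positions are from GENCODE vM21 on GRCm38. The method was also run on simulated counts with known changes placed in EtOH IMC alone. No shift by library number was simulated, so that run does not bear on early and late library numbers.

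Named genes are the 12 smallest p-values above and below 0, up to 4 called members per list, up to 8 called genes with changes of at least 0.5 in both diets and opposite signs, up to 8 with such a change in pair-fed mice only, and the 2 nearest genes on either side of the threshold; predicted gene models were counted but not named. The members and the lists were chosen with earlier results of these data known. Lists are described by counts and medians, without a test. Alternatives were pseudocounts of 0.1 and 5, no filter, a mean of at least 100, rescaling by a median ratio over all 16 libraries, quantile normalization, no mean-variance trend, library quality weights, edgeR 4.0.16 (TMM and upper quartile) and DESeq2 1.42.0 on whole reads, correction for GC content and exon length, and each library left out in turn. Figures were drawn with Python 3.11.15 and matplotlib 3.10.9.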

Additional observations from a re-analysis of the deposited data

Results flagged for a closer look

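Of the 60 named genes, 58 had adjusted p-values under 0.05 in limma for the difference between diets. Genes were named by this same test, so the count follows from the choice and is not a result. Each of the 58 is given here with its difference on the log2 scale. Above 0 these were the interferon genes and Phlda1, namely Irgm2 (1.04), Igtp (1.17), Isg15 (1.28), Irf7 (1.16), Tap1 (0.89), H2-Q4 (0.68) and Phlda1 (1.61). They were also the iron, growth hormone and growth factor genes Hamp (3.31), Id1 (2.15), Socs2 (1.96) and Hbegf (1.76), the carbonyl reductases Cbr3 (4.80) and Cbr1 (1.01), and Bax (0.93), Hint1 (0.66), Fam50a (0.69), Rabac1 (0.81), Kyat3 (0.60) and Sult2a5 (1.71). Below 0 the P450 and conjugating enzymes were Cyp2f2 (-1.49), Cyp2d40 (-1.38), Cyp8b1 (-2.99), Cyp2c39 (-1.72), Cyp2c40 (-1.11), Ugt1a5 (-1.70), Ugt1a9 (-1.59), Ugt3a1 (-1.40) and Ugt3a2 (-0.47). The genes of fat and sugar metabolism below 0 were Scd1 (-2.04), Elovl5 (-1.43), Acly (-1.13), Pklr (-1.11) and Fabp5 (-2.90), and those of oxidation in mitochondria and peroxisomes Acsf2 (-0.73), Etfdh (-0.64), Dmgdh (-0.91), Acss3 (-1.02), Hao2 (-1.06) and Car5b (-1.18). The stellate and matrix genes were Reln (-1.29), Pdgfrb (-0.99) and Col14a1 (-1.31), and the major urinary proteins Mup3 (-2.02) and Mup15 (-2.46). The remaining genes below 0 were Slc34a2 (-4.91), Fam198a (-2.24), Uck1 (-0.84), Tsc22d1 (-1.88), H2-Q1 (-2.77), Cmah (-1.60), Tlr12 (-1.20), Nsmf (-0.90), Rrm2 (-1.02), Frmd4a (-1.21), Rab36 (-1.74), F5 (-0.61), Defb1 (-1.06) and Dpyd (-0.70).

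Dixon's ratio was computed in 240 groups of 4 mice, 4 for each of the 60 named genes, and 14 had a mouse far from the other 3; chance alone marks about 1 in 20 groups. Library 8 of Pair IMC stood apart in 4 genes, at 3257 normalized counts for Fabp5, 1347 for Ugt1a5, 132 for Phlda1 and 148 for Bax. Library 11 of EtOH IMC did so in 2, at 371 for Sult2a5 and 85.3 for Cyp2c39. In Pair control, library 10 stood at 2599 for Hamp, library 12 at 398 for Hao2, library 14 at 1327 for Hint1 and library 16 at 815 for Reln. In EtOH control, library 1 stood at 4.78 for Cbr3 and library 3 at 184 for Tlr12. Library 2 of Pair IMC stood at 1830 for Acsf2 and library 9 of EtOH IMC at 1556 for Pklr. All of these mice stayed in the tests, and each was left out once in the fits without 1 mouse.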

How the results depend on the processing

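The difference between diets cannot be told apart from library numbers 9 to 16 against 1 to 8, which no fit can separate, and 4 mice per group at 9632659 to 12601199 reads limit which differences pass. The count of 138 genes was 81 without a filter on low values (17873 genes tested), 82 without the mean-variance trend, 340 with DESeq2, 72 with edgeR and TMM without library 15, and 256 with DESeq2 without library 15, and these last 2 alternatives were chosen after seeing the data. Without 1 mouse at a time it ran from 54 to 168. In the same fits the count for IMC in pair-fed mice, 1178, ran from 534 (without library 6) to 1434 (without library 8). It was 535 without library 4. That in ethanol-fed mice, 2717, ran from 1990 to 2860. The other alternatives gave 959 (no mean-variance trend) to 1563 (library quality weights) in pair-fed mice. In ethanol-fed mice they gave 2323 (mean of at least 100) to 3339 (library quality weights). For the difference between diets, the remaining settings gave 113 to 175 genes. Removing trends with GC content and exon length gave 119, 76.5% of them below 0 against 71.0% as reported. For the 60 named genes no fit reversed a sign. Over the fits without 1 mouse the call was unchanged in 675 cases, lost in 283 and gained in 2, and over the other alternatives in 716, 104 and 11. The cause of these changes was not tested. No paired analysis was run, because the labels give no pairing of mice between the 4 groups.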

Other observations

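Beside the 2 elements shown for Isg15, Igtp and Hamp, 5 short motifs were counted on both strands of RefSeq promoters (250 bases before to 50 after the start, GRCm38.p6), which matched 10063 of the 12535 tested genes and 80 of the 98 genes called below 0. Only 28 of the 40 genes called above 0 matched, under 80% of them, so a share for these is void and is not given. TATAAA was found in 7.76% of all 12904 promoters and 12.2% of 115 promoters of genes below 0, TGANNNNGC in 42.6% and 42.6%, TTCNNNGAA in 7.01% and 6.09%, and CACGTG in 9.77% and 3.48%. A pair of AGGTCA with 1 base between them was found in 0.0387% and 0%. The interferon element was in 0 of these 115 promoters, against 3.12% of all, and GGCGCC in 12.2% against 20.1%. These are shares of promoters that hold the letters, with no test.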
